A study of Mus musculus with 13 samples.

Results

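The 48 probe sets described here are those whose platform gene symbol is Hox a, b, c or d followed by a number 1 to 13. They measured 33 of the 39 mouse Hox genes in the RefSeq gene table, out of 45037 probe sets and 18193 genes with a single symbol on the array. Hox genes encode homeodomain transcription factors that give cells their position along the head-to-tail axis of the embryo. They lie in 4 clusters, Hoxa to Hoxd, and genes at the same place in different clusters form a paralog group. Genes of low paralog number are used furthest forward in the hindbrain, and genes of high number in the trunk, limbs and tail. The cerebellum, whose granule neurons come from the upper rhombic lip, arises from the most anterior hindbrain, ahead of the border of every Hox gene, whereas the brainstem behind it forms where the low-numbered Hox genes are used.

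RNA of 13 mouse samples was measured on 1 array each. The groups were 6 primary medulloblastomas of Ptch1(+/-) mice (Ptch1 MB), which are cerebellar tumours that form after loss of the hedgehog receptor gene Ptch1, 3 samples of wild-type granule neuron precursor cells at postnatal day 7 (P7 GNPC), and 4 samples of wild-type dorsal brainstem at E16.5, a late embryonic stage (E16.5 DBS). All tissues were untreated, and the sources used here do not state how the precursor cells were purified, how far the brainstem was dissected or how old the tumour mice were. Tumours with a Ctnnb1 mutation, which the series text also mentions, were not analysed here. Age goes with tissue in the normal samples and the labels give no batch, so neither age, tissue nor batch can be told apart from the groups. Values are linear MAS5 intensities, and a gene is represented by its lead probe set, the one with the highest mean over the 13 arrays. A value above the median of its own array (91.3 to 117.5) is described as above the array median, with no test. Where 3 values of a probe set are given for the tumours, they are the lowest, median and highest of the 6. The 3 values for P7 GNPC and the 4 for E16.5 DBS are single arrays in order.

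Granule precursor and brainstem neuron markers mostly followed the tissue labels. Of 7 granule precursor markers, 6 were higher than in E16.5 DBS in both Ptch1 MB and P7 GNPC (background for higher genes 10.9% and 6.28%), and the mean log2 level of the list was 11.16 to 11.52 in tumours and 11.05 to 11.42 in P7 GNPC, against 8.04 to 8.43 in E16.5 DBS. Of 9 measured brainstem neuron markers, 7 were lower in Ptch1 MB (background for lower genes 15.9%) and 5 in P7 GNPC (7.30%) than in E16.5 DBS, and 1, Lhx1, was higher in both, though not in P7 GNPC without E16.5 DBS 1. The mean log2 level of that list was 6.77 to 7.23 in tumours and 8.10 to 8.37 in P7 GNPC, against 9.75 to 9.81 in E16.5 DBS. Of 8 meningeal and fibroblast markers, 4 were lower in Ptch1 MB than in E16.5 DBS (mean log2 level 6.98 to 7.34 against 8.33 to 8.80). In P7 GNPC (8.97 to 9.18) none were lower and 2, Dcn and Lum, were higher, with a median log2 difference of 0.56. The Dcn call was lost without any 1 P7 GNPC array, E16.5 DBS 3 or E16.5 DBS 4. The Lum call was lost without E16.5 DBS 2 or E16.5 DBS 3. Of 6 endothelial markers, 2 were lower in Ptch1 MB and 1 in P7 GNPC, and of 6 macrophage markers, 3 were higher in Ptch1 MB and 1 in P7 GNPC. The mean log2 level of 6 choroid plexus markers was 6.66 to 8.55 in tumours, 7.73, 10.32 and 7.34 in P7 GNPC 1 to 3, and 9.57, 6.43, 7.57 and 9.14 in E16.5 DBS 1 to 4. No listed marker that was measured stood at 0, but some, among them Pecam1, Itgam and Twist1, were below the array median in every array. Many of these markers differ between the same groups as the Hox genes described below. The part of any of them in the Hox differences was not tested.

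The tumours and the granule precursors had almost no Hox signal, and the dorsal brainstem had a block of it that ran through paralog groups 2 to 6. In Ptch1 MB 0 of 33 Hox genes were above the array median in all 6 tumours, in P7 GNPC 0 of 33 in all 3 arrays, and in E16.5 DBS 12 of 33 in all 4 arrays. Over all probe sets on the array the shares were 43.3%, 46.8% and 45.3%. The share over the lead probe sets of all genes was not computed. The 12 were Hoxa2, Hoxb2, Hoxa3, Hoxb3, Hoxd3, Hoxa4, Hoxb4, Hoxc4, Hoxa5, Hoxb5, Hoxc5 and Hoxb6. They comprised all 11 measured genes of paralog groups 2 to 5 and 1 of the 2 of paralog group 6. By cluster they were 4 of 9 Hoxa genes, 5 of 9 Hoxb genes, 2 of 7 Hoxc genes and 1 of 8 Hoxd genes. In bulk RNA, fewer cells of a type and less RNA per cell cannot be told apart.

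Single arrays showed the same picture with 1 exception among the tumours. In tumours 1 to 6 the number of Hox genes above the array median was 1, 0, 0, 0, 0 and 0, in P7 GNPC 0, 0 and 0, and in E16.5 DBS 12, 13, 17 and 17. The gene above the median in tumour 1 was Hoxa2. Apart from it, the highest lead value was 69.4 in any tumour and 94 in any P7 GNPC array, both from Hoxc6. Over all 48 probe sets, 1 was above the array median in every tumour, 1 in every P7 GNPC array and 17 in every E16.5 DBS array. The same holds for 43.3%, 46.8% and 45.3% of all probe sets on the array, so the Hox share was below that of the array in every group, E16.5 DBS included. The 1 probe set in the tumours and precursors was a second probe set of Hoxa5, described with that gene.

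**Figure D1:**
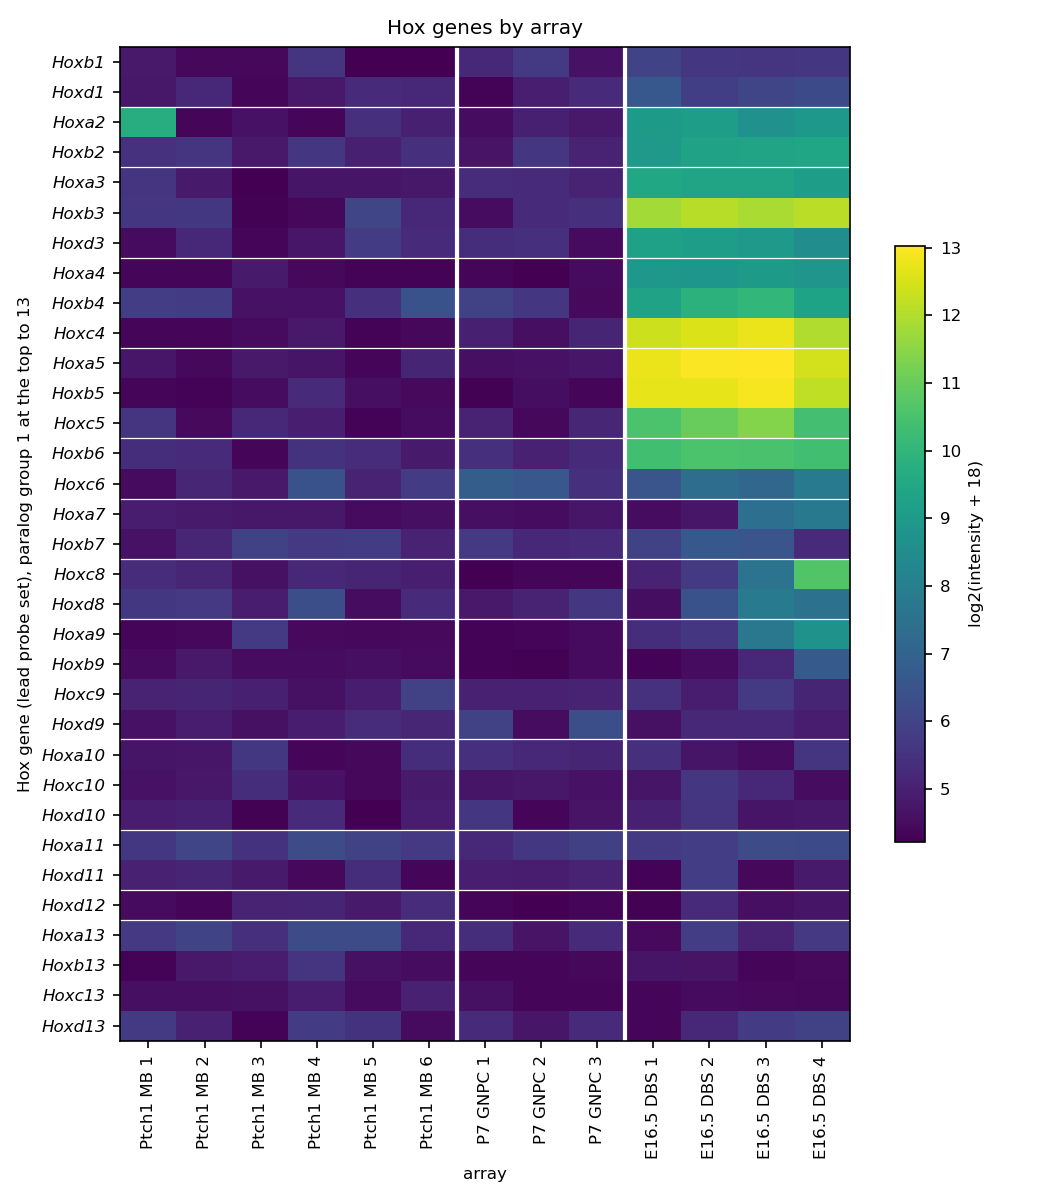
Each row is 1 Hox gene (lead probe set), ordered by paralog group 1 at the top to 13, each column is 1 array, and colour gives log2(intensity + 18). The bright block covers paralog groups 2 to 6 in the 4 E16.5 DBS arrays, and the single bright cell among the tumours is Hoxa2 in Ptch1 MB 1, at 827.

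**Figure D2:**
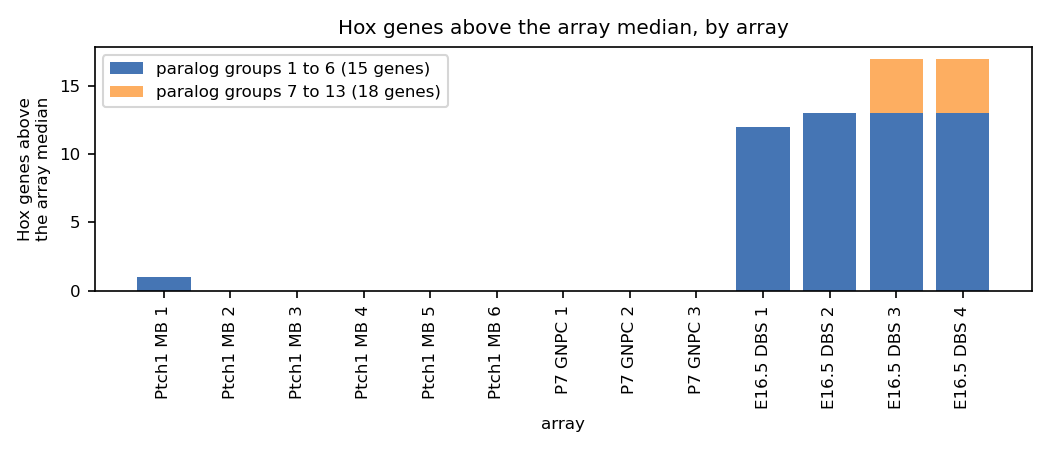
Bars give the number of Hox genes above the array median in each of the 13 arrays, split into paralog groups 1 to 6 (15 genes) and 7 to 13 (18 genes). The E16.5 DBS arrays reach 12, 13, 17 and 17, the last 2 with 4 genes of paralog groups 7 to 13 each, while 1 tumour reaches 1 and all other arrays are at 0.

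All arrays entered 1 limma model on log2(intensity + 18), and a call needed both a log2 difference of at least 1 and a Benjamini-Hochberg adjusted p below 0.05, taken over all 45037 probe sets. Of 33 Hox genes, 18 were lower in Ptch1 MB than in E16.5 DBS and 0 were higher, where 15.9% of all genes were called lower and 10.9% higher. The median log2 difference of the 33 genes was -1.24, beside -0.05 over all genes. Of the 48 probe sets, 28 were lower (background 12.3%). In P7 GNPC 15 of 33 genes were lower than in E16.5 DBS and 0 higher, beside 7.30% and 6.28% of all genes, with a median of -1.35 beside -0.01. Among probe sets 24 of 48 were lower (background 5.36%). These 2 comparisons share the E16.5 DBS arrays, so they are not independent of each other.

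The size of the difference varied with the paralog number. All 15 genes of paralog groups 1 to 6 passed as lower in Ptch1 MB than in E16.5 DBS (median -4.47), Hoxb1 and Hoxd1 among them with every value below the array median, as did 3 of 8 in groups 7 to 9 (median -0.96) and 0 of 10 in groups 10 to 13 (median -0.07). In P7 GNPC the counts were 13 of 15 (median -4.29), 2 of 8 (median -1.14) and 0 of 10 (median -0.15). Of all genes, 15.9% were called lower in Ptch1 MB and 7.30% in P7 GNPC. Of the 33 genes, 12 were at least 8-fold lower in Ptch1 MB and 12 in P7 GNPC, beside 2.52% and 0.434% of all genes. The ranges were apart for 14 of 33 genes between Ptch1 MB and E16.5 DBS (background 40.6%) and for 15 of 33 between P7 GNPC and E16.5 DBS (background 42.0%). By that measure alone the Hox genes stood near the background, while the sizes of their differences did not.

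**Figure D3:**
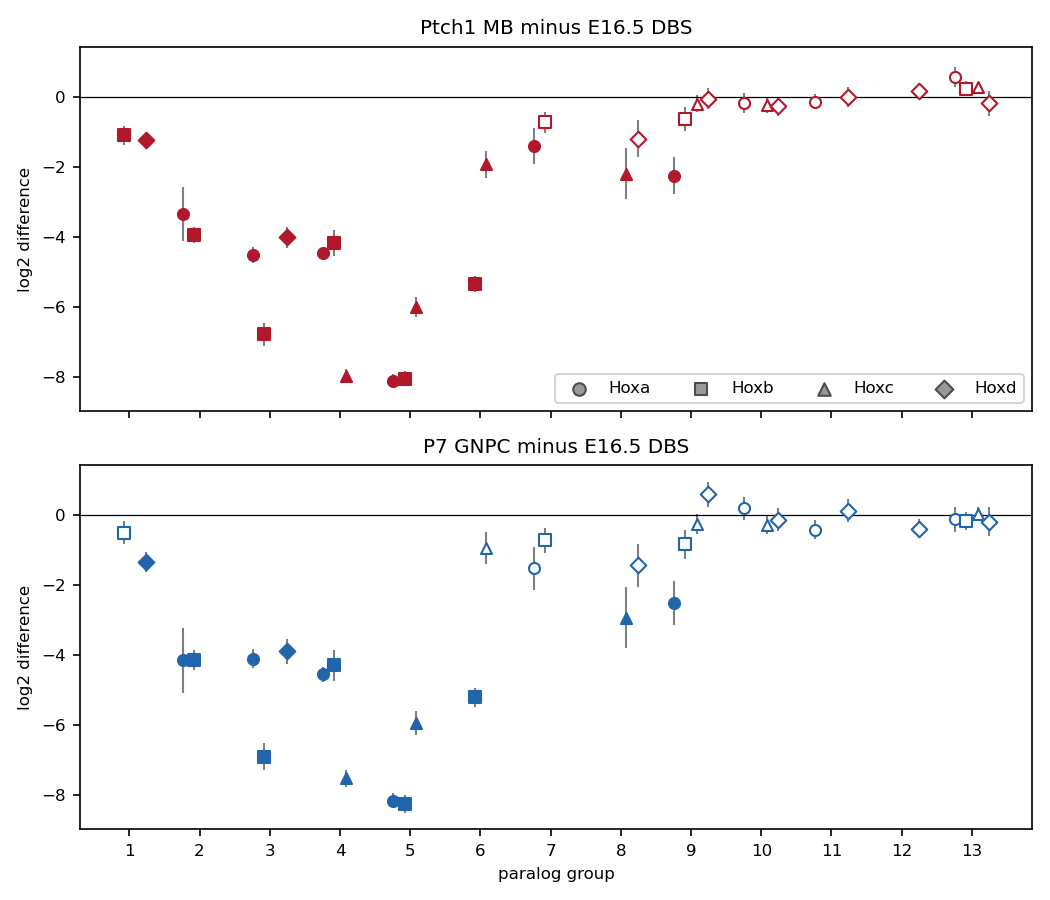
Points give the log2 difference of each Hox gene on the log2(intensity + 18) scale with its standard error, Ptch1 MB minus E16.5 DBS above and P7 GNPC minus E16.5 DBS below, against paralog group. Filled points passed the test and open points did not, and the marker shape gives the cluster. The differences reach about -8 in paralog groups 4 and 5 and lie near 0 in groups 10 to 13.

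By cluster, lower in Ptch1 MB than in E16.5 DBS were 6 of 9 Hoxa genes (median -2.25), 6 of 9 Hoxb genes (median -3.95), 4 of 7 Hoxc genes (median -1.93) and 2 of 8 Hoxd genes (median -0.23). In P7 GNPC the counts were 5 of 9, 5 of 9, 3 of 7 and 2 of 8. The background for lower genes was 15.9% in Ptch1 MB and 7.30% in P7 GNPC. Of the 8 measured Hoxd genes, 6 belong to paralog groups 8 to 13.

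Paralog group 1 was dim in every array. Hoxb1, which specifies rhombomere 4 and the facial motor neurons, had a lowest, median and highest intensity of 0.6, 3.3 and 28.9 in the tumours and 19.5, 34 and 7.3 in P7 GNPC 1 to 3, against 46.7, 30.3, 29.7 and 30.7 in E16.5 DBS 1 to 4. All of these values were below the array medians. The test of Hoxb1 passed in Ptch1 MB (log2 difference -1.09, adjusted p = 0.00369), and its log2 difference of -0.50 ± 0.32 (SE) between P7 GNPC and E16.5 DBS did not pass. Hoxd1, its paralog in cluster D, had 2.7, 14.5 and 20.9 in the tumours and 1.6, 13.1 and 20.8 in P7 GNPC, against 81.8, 40.4, 49 and 54.6 in E16.5 DBS. Its test passed in Ptch1 MB (-1.24, adjusted p = 0.000633) and in P7 GNPC (-1.34, adjusted p = 0.00325). Since all values lie below the array medians, the sizes of these differences are not reliable. All 3 calls fell below the 2-fold minimum at a pseudocount of 64, with log2 differences in Ptch1 MB of -0.46 for Hoxb1 and -0.63 for Hoxd1, and in P7 GNPC of -0.66 for Hoxd1. The Hoxb1 call was also lost without E16.5 DBS 1 (-0.99).

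By lead probe sets Hoxa2 was the only Hox gene above the array median in a tumour. Hoxa2 has the most anterior border of all Hox genes and gives neural crest of the second pharyngeal arch its identity. In tumours 1 to 6 it had 827, 2.4, 6.9, 2.6, 24.6 and 14, in P7 GNPC 5, 14.1 and 10.3, and in E16.5 DBS 501.5, 544.5, 386.9 and 460.6. Tumour 1 thus lay above all 4 brainstem arrays, and the other 5 tumours lay in the range of the precursors or close to it. Over all tumours Hoxa2 was 10.2-fold lower than in E16.5 DBS (log2 difference -3.35 ± 0.78, adjusted p = 0.00216). Without tumour 1 the log2 difference was -4.18 ± 0.25 (adjusted p = 5.44e-09). The difference of P7 GNPC from E16.5 DBS was close to it, at -4.15 ± 0.92 with all arrays in the fit (17.7-fold, adjusted p = 0.00366). The groups share 1 estimate of the spread, so tumour 1 also widened the SE of P7 GNPC. Without tumour 1 the P7 GNPC difference was -4.15 ± 0.28 (adjusted p = 1.93e-07).

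The high value in tumour 1 was shared by few other probe sets. Counting probe sets at 4 or more times the array median in 1 tumour and below the median in the other 5, tumours 1 to 6 had 4, 3, 0, 1, 3 and 1 of 45037. Of the 4 in tumour 1, 2 were also below the median in all P7 GNPC arrays and above it in all E16.5 DBS arrays, Hoxa2 and Crh, which encodes the corticotropin-releasing hormone. The other Hox genes of tumour 1 were low, with Hoxa3 at 29.3, Hoxb2 at 26.4 and Hoxb3 at 31.1. These genes and the count rule were chosen after the values were seen. The mean log2 level of the brainstem neuron markers was 7.23 in tumour 1, against 6.77 to 7.20 in the other tumours and 9.75 to 9.81 in E16.5 DBS.

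Hoxb2, which acts with Hoxb1 in facial motor neurons, was low in all tumours. It had 10.2, 25.95 and 30.4 in the tumours and 7.5, 31.1 and 15.6 in P7 GNPC, against 476.8, 604.7, 646.1 and 670.8 in E16.5 DBS. Every brainstem array was far above every other array. The log2 difference was -3.95 ± 0.23 for Ptch1 MB (15.4-fold, adjusted p = 1.66e-09) and -4.14 ± 0.28 for P7 GNPC (17.6-fold, adjusted p = 6.51e-08).

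The DNA just before the Hoxa2 start is shown because Hoxa2 is the gene that differed among the tumours. The window is the 250 bases upstream of the annotated start, read 5′ to 3′ on the gene's strand (RefSeq, GRCm38.p6, chr6:52164832-52165081, minus strand). Capitals mark matches to TGATNNAT, a composite site of PBX and Hox proteins, here on the opposite strand, and to TGACAG, a site of MEIS proteins.
Hoxa2: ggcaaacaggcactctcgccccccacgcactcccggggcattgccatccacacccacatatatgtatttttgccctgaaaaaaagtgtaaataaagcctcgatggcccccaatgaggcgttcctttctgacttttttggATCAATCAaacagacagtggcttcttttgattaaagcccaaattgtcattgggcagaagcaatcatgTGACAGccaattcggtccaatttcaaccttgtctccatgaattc
Searched on both strands, TGATNNAT occurred in 7.68% and TGACAG in 15.9% of the 32851 upstream windows in the table. Of the 6 genes above the median in all E16.5 DBS arrays that have a single window there, 1 (Hoxa2) held the first and 2 (Hoxa2 and Hoxa3) the second. A match describes letters in this window and is not evidence of a bound site.

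Paralog group 3 was high in every brainstem array in all 3 clusters measured. Hoxa3, needed for the thymus, the parathyroid and the glossopharyngeal nerve, had 0.8, 9 and 29.3 in the tumours and 22.4, 21 and 16.3 in P7 GNPC, against 705.3, 640.2, 642.2 and 538.4 in E16.5 DBS. Hoxb3 had 1.1, 24.85 and 48.1 in the tumours and 4.7, 20.3 and 25.8 in P7 GNPC, against 3530.1, 4330, 3791.9 and 4394.9 in E16.5 DBS. Hoxd3, which patterns the first neck vertebra, had 2.1, 13.9 and 36.7 in the tumours and 23.1, 25.2 and 4.1 in P7 GNPC, against 595.8, 552.8, 484.9 and 352.3 in E16.5 DBS. In none of the 3 did the brainstem arrays overlap the tumours or the precursors. In Ptch1 MB the folds were 23.0-fold lower for Hoxa3 (log2 difference -4.52 ± 0.23), 109.6-fold for Hoxb3 (-6.78 ± 0.32) and 16.1-fold for Hoxd3 (-4.01 ± 0.30), with adjusted p from 1.7e-10 to 1.99e-08. In P7 GNPC they were 17.1-fold, 119.3-fold and 14.9-fold lower, with adjusted p from 1.2e-08 to 1.3e-06. Of the 4 Hoxa3 probe sets 3 were lower in both comparisons, and the fourth, with 23.1 to 30.6 in E16.5 DBS, did not pass.

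Genes of paralog group 4 pattern the neck and the caudal hindbrain. Hoxa4 had 1.7, 2.25 and 11.1 in the tumours and 2.4, 0.9 and 4 in P7 GNPC, against 459.4, 444, 501.8 and 428.4 in E16.5 DBS. Hoxb4, whose border lies between rhombomeres 6 and 7, had 6.8, 31.15 and 68.3 in the tumours and 44.7, 30.8 and 3.9 in P7 GNPC, against 613.3, 915, 1040.8 and 623.5 in E16.5 DBS. Hoxc4 had 1.8, 3 and 10.3 in the tumours and 13.9, 5.8 and 17.1 in P7 GNPC, against 5210.6, 6082.2, 6979.2 and 4015.2 in E16.5 DBS. All 3 separated the brainstem from every other array. Hoxa4 was 22.1-fold lower in Ptch1 MB (-4.47 ± 0.18, adjusted p = 3.37e-11) and 23.3-fold lower in P7 GNPC (adjusted p = 2.54e-09). Hoxb4 was 18.1-fold (-4.17 ± 0.37, adjusted p = 1.3e-07) and 19.6-fold lower (adjusted p = 4.07e-06). The fold for Hoxc4 was 249.9 (-7.97 ± 0.20, adjusted p = 7.89e-13) and 183.4 (-7.52 ± 0.24, adjusted p = 1.69e-11).

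In paralog group 5, Hoxa5 and Hoxb5 had, with Hoxc4, the largest differences of the 33 genes in both comparisons with E16.5 DBS. Hoxa5, needed for lung development and, with Hoxc5, for the motor neurons of the diaphragm, had 2.4, 8.8 and 17.1 in the tumours and 5.7, 7 and 9.2 in P7 GNPC, against 6964.6, 8122.4, 8334.3 and 5534.1 in E16.5 DBS. Hoxb5, active in enteric neural crest, had 1.9, 4.1 and 20.8 in the tumours and 1.1, 5.2 and 2.6 in P7 GNPC, against 6647.7, 6665.1, 7597.3 and 4637.1 in E16.5 DBS. Hoxc5 had 1.7, 8.8 and 29.1 in the tumours and 15.6, 3.4 and 17.9 in P7 GNPC, against 1446.2, 2017.8, 2661.6 and 1314.6 in E16.5 DBS. None of the 9 arrays of tumours and precursors came near the brainstem values. On the log2(intensity + 18) scale the difference of Hoxa5 from E16.5 DBS was -8.11 ± 0.19 in Ptch1 MB (275.6-fold lower, adjusted p = 7.89e-13) and -8.15 ± 0.23 in P7 GNPC (283.7-fold lower, adjusted p = 5.95e-12). Hoxb5 was 263.3-fold and 301.6-fold lower, and Hoxc5 63.8-fold and 61.1-fold. The tumour and precursor values of these genes are near the pseudocount, so the folds depend on it: for Hoxa5 in Ptch1 MB the log2 difference was -9.78 with a pseudocount of 1 and -6.64 with 64.

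A second Hoxa5 probe set, with the suffix that marks probes able to bind other transcripts, gave another level. It had 138, 239.8 and 349.4 in the tumours and 174.2, 280.8 and 224.9 in P7 GNPC, against 2813.1, 4678.5, 4097 and 2551.2 in E16.5 DBS. Its values were above the array median in all 13 arrays, and it was 14.2-fold lower in Ptch1 MB (-3.82 ± 0.27, adjusted p = 1.29e-08). Both probe sets thus put the brainstem above the other groups, and they differ on whether the tumours have any signal above the median.

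**Figure D4:**
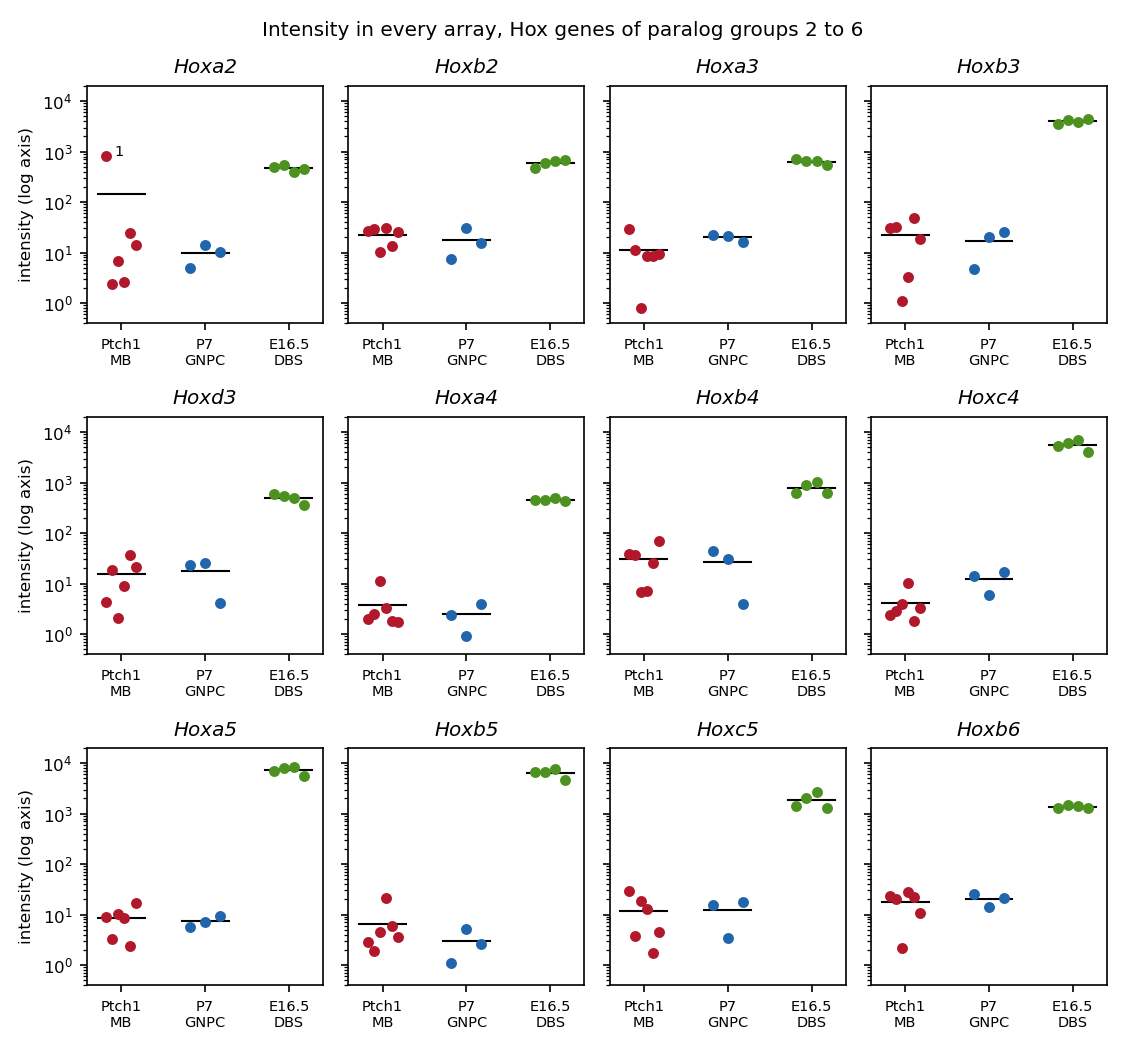
Points are single arrays and bars are group means of intensity, on a log axis, for the 12 Hox genes above the array median in all 4 E16.5 DBS arrays; the number 1 marks Ptch1 MB 1. In 11 panels every E16.5 DBS array lies above every tumour and precursor array, and in the Hoxa2 panel Ptch1 MB 1 lies above them at 827.

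The upstream windows of Hoxb4, Hoxc4 and Hoxa5 are shown because Hoxc4 shares a word of 12 letters with Hoxb4 and another with Hoxa5. Each is the 250 bases before the annotated start on the gene's strand in RefSeq GRCm38.p6, at chr11:96318017-96318266 (Hoxb4, plus strand), chr15:103034145-103034394 (Hoxc4, plus strand) and chr6:52204588-52204837 (Hoxa5, minus strand). Capitals mark AGGTCA, a half-site of nuclear receptors such as the retinoic acid receptors, which stands in both windows on the opposite strand as TGACCT, and the words TTGCCATAATGG and CCCCTCCCCATC.
Hoxb4: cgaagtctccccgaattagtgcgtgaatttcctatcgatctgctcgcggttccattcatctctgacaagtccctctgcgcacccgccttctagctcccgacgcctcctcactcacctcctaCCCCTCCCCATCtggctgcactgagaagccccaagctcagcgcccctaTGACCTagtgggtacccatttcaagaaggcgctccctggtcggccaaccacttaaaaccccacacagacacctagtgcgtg
Hoxc4: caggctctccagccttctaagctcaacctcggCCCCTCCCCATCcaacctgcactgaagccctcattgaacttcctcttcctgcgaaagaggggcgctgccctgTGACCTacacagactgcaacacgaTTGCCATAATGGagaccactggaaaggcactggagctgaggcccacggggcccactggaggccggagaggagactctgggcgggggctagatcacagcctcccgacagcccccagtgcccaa
Hoxa5: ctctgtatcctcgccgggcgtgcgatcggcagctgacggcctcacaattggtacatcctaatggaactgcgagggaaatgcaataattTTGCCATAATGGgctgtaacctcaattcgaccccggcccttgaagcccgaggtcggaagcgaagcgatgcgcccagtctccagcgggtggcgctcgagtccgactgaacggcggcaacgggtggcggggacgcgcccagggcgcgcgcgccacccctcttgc
AGGTCA, searched on both strands, was in 14% of all windows and in 3 of the 6 (Hoxd3, Hoxb4 and Hoxc4). The words of 12 letters are the longest that any pair of the 6 windows share and were found by comparing them. The longest word of Hoxa5 and Hoxb4 had 8 letters, as had that of Hoxa2 and Hoxb4. How long a word such windows share by chance was not tested, and a shared word is not evidence of shared control. TTGCCATAATGG occurred in 2 of the 32851 windows, those of Hoxc4 and Hoxa5, and CCCCTCCCCATC in 25, among them Hoxb4 and Hoxc4. In Hoxc4 TTGCCATAATGG begins 122 bases before the start and in Hoxa5 162 bases before it. The ratio of observed to expected CpG dinucleotides had a median of 0.723 in these 6 windows, against 0.52 in 15 windows of the other Hox genes and 0.373 in all windows, with no test.

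Paralog group 6 divided. Hoxb6 had 2.2, 21.2 and 27.7 in the tumours and 25, 14.2 and 21.1 in P7 GNPC, against 1307.5, 1451.6, 1433.5 and 1308 in E16.5 DBS, and was 40.3-fold (adjusted p = 5e-11) and 36.8-fold lower (adjusted p = 5.71e-09). Hoxc6, a marker of forelimb-level motor neurons, had 4.4, 17.1 and 69.4 in the tumours and 94, 79.4 and 25.3 in P7 GNPC, against 76, 148.7, 122 and 213.1 in E16.5 DBS. Brainstem array 1 fell within the range of the precursors and above that of the tumours. Hoxc6 was 3.8-fold lower in Ptch1 MB (-1.93 ± 0.38, adjusted p = 0.000578), and its difference of -0.95 ± 0.45 in P7 GNPC did not pass (adjusted p = 0.156). Of its 3 probe sets, 2 were lower in Ptch1 MB, and 1, not the lead, was lower in P7 GNPC (-1.68, adjusted p = 0.0267).

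Between paralog groups 7 and 9 the brainstem arrays themselves were unlike. Hoxa7 had 4, 9.65 and 11.5 in the tumours and 5.7, 4.7 and 8.8 in P7 GNPC, against 4.6, 9.1, 156.1 and 201.2 in E16.5 DBS 1 to 4. Hoxc8, used in motor neurons that serve the forelimb, had 6.2, 17.6 and 22 in the tumours and 1, 2.7 and 2.5 in P7 GNPC, against 16.3, 33.9, 171.9 and 1581 in E16.5 DBS. Hoxa9, active in the trunk and in blood stem cells, had 2.2, 3.4 and 34.1 in the tumours and 1.8, 2.3 and 4.1 in P7 GNPC, against 23.3, 31.3, 198.6 and 409.2 in E16.5 DBS. All 3 were above the array median in E16.5 DBS 3 and 4 and below it in E16.5 DBS 1 and 2. Hoxd8 did likewise, with 5.4, 69.5, 216.6 and 162.7 in E16.5 DBS. Hoxb9 reached 87.5 in E16.5 DBS 4, below that array's median, and 1.6 to 19.1 in the other 3.

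**Figure D5:**
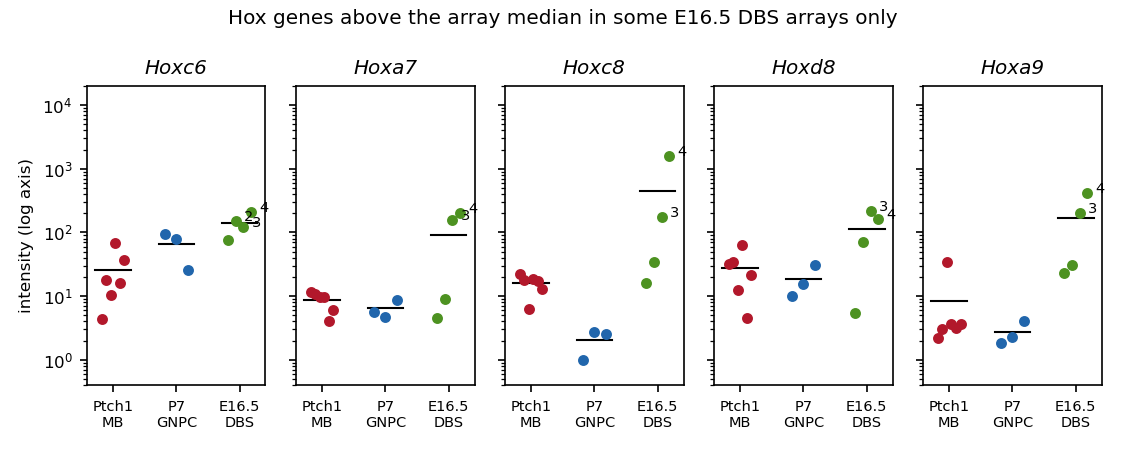
Points are single arrays and bars are group means of intensity, on a log axis, for the 5 Hox genes above the array median in some of the E16.5 DBS arrays; numbers mark arrays above 120. For Hoxa7, Hoxc8, Hoxd8 and Hoxa9 arrays 3 and 4 lie above arrays 1 and 2, and for Hoxc6 arrays 2, 3 and 4 are marked.

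Most of the calls in these groups depended on E16.5 DBS 3 and 4. Hoxa7 was 2.63-fold lower in Ptch1 MB (-1.39 ± 0.52, adjusted p = 0.0397), Hoxc8 4.57-fold (-2.19 ± 0.73, adjusted p = 0.0232) and Hoxa9 4.77-fold (-2.25 ± 0.53, adjusted p = 0.00229). In P7 GNPC Hoxc8 was 7.6-fold lower (adjusted p = 0.0219) and Hoxa9 5.66-fold (adjusted p = 0.00797). Without the pair of arrays, a setting chosen after their values were seen, 15 of 15 genes of groups 1 to 6 and 0 of 18 of groups 7 to 13 were lower in Ptch1 MB, and 13 of 15 and 1 of 18, Hoxc8, in P7 GNPC. The log2 difference of Hoxa7 in Ptch1 MB was then 0.10. Hoxc8 was then at -0.34 in Ptch1 MB (adjusted p = 0.331) and -1.07 in P7 GNPC (adjusted p = 0.0167), and Hoxa9 at -0.88 (adjusted p = 0.0505) and -1.12 (adjusted p = 0.0502). The Hoxa7 call was also lost on leaving out any 1 tumour (adjusted p 0.0516 to 0.0678), or E16.5 DBS 3 or E16.5 DBS 4 alone (0.165 and 0.177). The Hoxc8 call in Ptch1 MB was lost without E16.5 DBS 3 (adjusted p = 0.0589), and the one in P7 GNPC on leaving out any 1 P7 GNPC array (adjusted p 0.0611 to 0.0625). Hoxa9 had a second probe set, with 13 to 40.2 in E16.5 DBS, that did not pass. Hoxb7, at 44.1, 81.5, 75.6 and 21.9 in E16.5 DBS, Hoxd8 by its lead, Hoxb9, Hoxc9 and Hoxd9 did not pass in either comparison, while the second Hoxd8 probe set was lower in Ptch1 MB (-1.53 ± 0.32, adjusted p = 0.00102).

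Other measurements set the same arrays apart in part. The mean log2 level of the brainstem neuron markers was nearly equal in E16.5 DBS 1 to 4, at 9.79, 9.75, 9.77 and 9.81. The level of 4 measured blood markers of 7 listed was 5.87, 5.70, 6.50 and 6.68. Of the 4, the haem synthesis enzyme Alas2 was at 242.6, 183.7, 692.1 and 623.6. The others were below the array medians and split the arrays otherwise. Hba-a1 was at 40, 11.4, 22.2 and 11.1, Hbb-y at 19.7, 9, 19 and 88.9, and Hbb-bh1 at 2.7, 27.5, 46.3 and 37.3. Hoxd3os1, an antisense RNA of Hoxd3, was at 162.8, 199.2, 654.7 and 414.3, while Hoxd3 itself was at 595.8, 552.8, 484.9 and 352.3. The meningeal list was at 8.80, 8.63, 8.47 and 8.33. The part of these markers in the values of paralog groups 7 to 9 was not tested.

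The 10 genes of paralog groups 10 to 13, which pattern the lumbar and tail regions, the limbs and the reproductive tract, were at background in all groups. Their highest value was 57.7 in any tumour (Hoxa11 and Hoxa13), 40.5 in any P7 GNPC array and 57.5 in any E16.5 DBS array, all below the array medians. None passed in any comparison, and the adjusted p in Ptch1 MB against E16.5 DBS ran as low as 0.145, for Hoxa13 (log2 difference 0.56 ± 0.30). Values of this size do not show whether a gene is absent.

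Between Ptch1 MB and P7 GNPC the Hox genes gave no call. By limma 0 of 33 genes and 0 of 48 probe sets passed, beside 10.2% of all genes lower and 4.64% higher and 8.10% and 3.48% of all probe sets. At an unadjusted p under 0.05 there were 3 of 48, all leads (Hoxc6, Hoxd12 and Hoxa13), beside 34.3% of all probe sets. The lowest adjusted p was 0.105, for Hoxc6 (25.9 ± 23.98, SD, n = 6, against 66.2 ± 36.2, SD, n = 3). This lead probe set has the suffix that marks probes able to bind other transcripts. The other Hoxc6 probe sets differed by -0.09 and -0.15. The median log2 difference of the 33 genes was 0.08, beside -0.03 over all genes. Values did not overlap for 1 of 33 genes, Hoxc8, with 6.2 to 22 in the tumours and 1 to 2.7 in P7 GNPC (background 32.3%). Hoxa2 differed by 0.80 ± 0.85, and by -0.03 without tumour 1. Since nearly all of these values are below the array median, a difference between the groups was not detectable here rather than shown to be absent.

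Probe sets that name more than 1 Hox gene, and other transcripts of the clusters, gave similar patterns. A probe set named for both Hoxb8 and Hoxb7 had 3.1, 20.1 and 26.7 in the tumours and 6.1, 24.6 and 8.6 in P7 GNPC, against 340.2, 1001.7, 819.6 and 553.4 in E16.5 DBS. It was 18.9-fold lower in Ptch1 MB (-4.24 ± 0.31, adjusted p = 1.73e-08) and 21.5-fold lower in P7 GNPC (adjusted p = 5.54e-07), and was high in all 4 brainstem arrays where Hoxb7 alone was not. Of 2 probe sets named for Hoxd4 and Hoxd3, the brighter had 229 to 273.3 in E16.5 DBS and log2 differences of -2.57 in Ptch1 MB and -2.12 in P7 GNPC. Which of the named genes gave these signals cannot be told apart.

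Of 14 listed transcripts linked to the clusters, 5 were measured and 3 were lower in both Ptch1 MB (background 15.9%) and P7 GNPC (background 7.30%). Hoxb5os, antisense to Hoxb5, had 24.5, 45.05 and 101.8 in the tumours and 24.5, 64.9 and 29.7 in P7 GNPC, against 1402.2, 1687, 1868.5 and 1467.8 in E16.5 DBS. It was 24.7-fold (adjusted p = 1.03e-09) and 29.2-fold lower (adjusted p = 3.93e-08). Hoxd3os1 was 10.6-fold and 14.4-fold lower by its lead probe set, and its other probe set did not pass. Evx1, a homeobox gene of spinal and hindbrain interneurons that lies beyond Hoxa13, had 2.5, 7.65 and 56.4 in the tumours and 32.4, 44.4 and 24.4 in P7 GNPC, against 171.4, 186.9, 156.4 and 223.7 in E16.5 DBS. Evx2 and Hoxa11os did not pass. Evx1os, antisense to Evx1 and looked at outside the list, had all values below the array median, and its test passed in P7 GNPC (-1.16, adjusted p = 0.0158) and not in Ptch1 MB (-0.64, adjusted p = 0.0739). Since the sources used here do not state whether labelling kept strand for these probe sets, a gene and its antisense partner may share signal.

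Genes outside the clusters did not share the pattern as a group. Of 24 genes, the 3 nearest on each side of each cluster, 22 were measured. Lower in Ptch1 MB than in E16.5 DBS were 4 (Skap2, Evx1, Skap1 and Mtx2, background 15.9%) and higher were 3 (Cbx1, Atp5g2 and Hnrnpa1, background 10.9%), with a median log2 difference of -0.15. Both shares are near the background. The Skap1 call was lost without E16.5 DBS 1 (-0.96), E16.5 DBS 3 (-0.93) or tumour 4 (-0.96), and the Atp5g2 call without E16.5 DBS 2 (0.80). In P7 GNPC 2 were lower (Evx1 and Skap1, background 7.30%) and 0 higher (background 6.28%), with a median of -0.04. Mtx2, a mitochondrial import protein gene next to Hoxd1, had a different pattern. In tumours 1 to 6 it had 119.5, 1063.4, 114.1, 141.9, 171.1 and 153.6, in P7 GNPC 1723, 1541.8 and 1772.7, and in E16.5 DBS 2771.3, 1592.1, 2572.7 and 2088.9. It was thus low in 5 tumours, intermediate in tumour 2 and high in all normal arrays, 10.3-fold lower in Ptch1 MB than in E16.5 DBS (adjusted p = 1.13e-05) and 7.84-fold lower than in P7 GNPC (adjusted p = 0.000286). Without tumour 2 the folds were 14.2 and 10.8. Of the 22, it alone passed between tumours and precursors, and it rests on 1 probe set.

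Cofactors of the Hox proteins differed in part. Proteins of the MEIS, PBX and PKNOX families bind DNA together with Hox proteins, and 8 of 9 listed genes were measured. Lower in Ptch1 MB than in E16.5 DBS were 2 (Meis2 and Pknox2, background 15.9%), lower in P7 GNPC 3 (Meis2, Pbx3 and Pknox2, background 7.30%), and none were higher by their lead probe sets. The Pknox2 call in P7 GNPC (log2 difference -1.02) fell below the 2-fold minimum without E16.5 DBS 3, E16.5 DBS 4, P7 GNPC 2 or P7 GNPC 3 (-0.932 to -0.998). The other Pknox2 probe set did not pass between P7 GNPC and E16.5 DBS. Meis2 had 9.1, 35.9 and 60.2 in the tumours and 729.4, 269.7 and 71.7 in P7 GNPC, against 7820.4, 9058.9, 6227.1 and 7989.1 in E16.5 DBS. It was 156.1-fold lower in Ptch1 MB (adjusted p = 1.73e-09), 28.8-fold lower in P7 GNPC (adjusted p = 5.87e-06) and 5.42-fold lower in tumours than in P7 GNPC (adjusted p = 0.00117), and all 4 of its probe sets passed in all 3 comparisons. The lead probe set of Meis1 stood at 3608 ± 627.5 in Ptch1 MB (SD, n = 6) and 3105 ± 406 in P7 GNPC (n = 3), against 3038 ± 74.2 in E16.5 DBS (n = 4), and did not pass. Of its other 2 probe sets, 1 did not pass and 1 was higher than in E16.5 DBS in both, with means of 462.1 in Ptch1 MB and 368.4 in P7 GNPC, against 100.8 in E16.5 DBS. Pbx3 was 4.2-fold lower in P7 GNPC than in E16.5 DBS and 2.35-fold higher in Ptch1 MB than in P7 GNPC by its lead, and its other probe set was lower in Ptch1 MB than in E16.5 DBS while the lead did not pass there (-0.84).

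The upstream regulators comprised retinoic acid enzymes and receptors and hindbrain transcription factors, 15 of 18 measured. Higher in Ptch1 MB than in E16.5 DBS was 1 (background 10.9%), Egr2, a direct activator of Hoxa2 and Hoxb2 in the hindbrain and also an immediate early gene. It had 310, 525.75 and 879 in the tumours and 45.6, 87.5 and 98.5 in P7 GNPC, against 149.4, 129.7, 107.9 and 95.8 in E16.5 DBS, and was 3.87-fold higher than in E16.5 DBS (adjusted p = 4.95e-05) and 5.76-fold higher than in P7 GNPC (adjusted p = 3.5e-05). In tumours 1 to 6 Egr2 was 659.7, 310, 391.8, 795.9, 879 and 317.8, tumour 1 being the one with the high Hoxa2. Whether Egr2 had a part in that Hoxa2 value was not tested. Lower in Ptch1 MB than in E16.5 DBS were 4 (background 15.9%). Among them Gbx2, a repressor of midbrain fate, was 11.9-fold lower, Rxrg, a retinoid X receptor, 6.57-fold, Cyp26b1, which degrades retinoic acid, 5.74-fold, and Aldh1a2, which makes it, 2.55-fold. In P7 GNPC 2 were lower than in E16.5 DBS (background 7.30%), Gbx2 (9.36-fold) and Rarb, a retinoic acid receptor that is itself induced by retinoic acid (3.53-fold).

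Some chromatin regulators of the clusters were higher in the tumours than in the brainstem. The 20 measured genes of 22 listed encode Polycomb proteins, which keep Hox genes silent, and Trithorax-type proteins and demethylases that oppose them. In Ptch1 MB 7 were higher than in E16.5 DBS (background 10.9%) and 0 lower, with a median log2 difference of 0.43. The 7 were Ezh2, Eed, Suz12, Bmi1, Ring1, Cbx2 and Phc2, all of them Polycomb genes, as are most of the 20. The Ring1 call (2.08-fold, adjusted p = 0.0462) was lost without E16.5 DBS 2 (1.42-fold, adjusted p = 0.19), where Ring1 was 7.2 against 78.8 to 111.7 in the other E16.5 DBS arrays, and also without E16.5 DBS 4, P7 GNPC 2 or any 1 of tumours 1 to 5 (adjusted p 0.0504 to 0.0901). In P7 GNPC 3 were higher (Kdm6a, Ezh2 and Phc2, background 6.28%) and 0 lower, with a median of 0.41. Without P7 GNPC 3 Kdm6a fell below the 2-fold minimum (1.99-fold), and its probe sets other than the lead did not pass. Between Ptch1 MB and P7 GNPC, 1 of the 20 was higher, Ezh2 (background 4.64%), and 0 were lower (background 10.2%). Ezh2, the histone H3 methyltransferase of Polycomb, had 6202.7, 8449 and 9528.1 in the tumours and 2704.1, 3813.2 and 3606.3 in P7 GNPC, against 853.6, 937.7, 1235.1 and 828 in E16.5 DBS. Its 3 groups did not overlap, at 8.39-fold (adjusted p = 1.16e-10) for Ptch1 MB and 3.46-fold (adjusted p = 1.69e-06) for P7 GNPC over E16.5 DBS. Ezh2 is also a gene of dividing cells, and the part of cell division in these values was not tested.

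Genes of the midbrain and anterior hindbrain moved in both directions. Of 8 measured of 9 listed, En2, Otx1 and Otx2 were higher than in E16.5 DBS in both Ptch1 MB (3 of 8, background 10.9%) and P7 GNPC (3 of 8, background 6.28%), and 2 were lower in Ptch1 MB (background 15.9%) and 1 in P7 GNPC (background 7.30%). En2, which patterns the cerebellum, stood at 1507 ± 185 in Ptch1 MB and 3125 ± 353 in P7 GNPC, against 23.8 ± 7.63 in E16.5 DBS (36.7-fold and 75.8-fold, adjusted p = 1.16e-12 and 5.52e-12). Otx1 ranged over 7.4 to 1233.4 in the tumours, and its call in P7 GNPC was lost on leaving out any 1 array of P7 GNPC or E16.5 DBS (adjusted p 0.0533 to 0.107). Lmx1b, used in serotonergic and other hindbrain neurons, was 13.5-fold and 12.7-fold lower in Ptch1 MB and P7 GNPC by its lead probe set. Its other probe set did not pass, with means of 35.55 in Ptch1 MB, 47.5 in P7 GNPC and 36.0 in E16.5 DBS. Irx2 was 2.23-fold lower in Ptch1 MB (1.91-fold, below the minimum, without tumour 4). En2 was 2.07-fold lower in Ptch1 MB than in P7 GNPC (adjusted p = 0.000109), and under 2-fold without P7 GNPC 1 (1.94-fold) or tumour 1 (1.98-fold).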

How the data were processed

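Samples were grouped by source name. The authors deposited MAS5 intensity values, MAS5 being named without a version or role per the submitters' processing notes. With the outer 2% of values at both ends set aside, each deposited array averages 500, which is a global scaling. Detection calls were not used here. Total RNA was amplified in 2 cycles per the labels, which favours the 3′ end of transcripts.

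Of 45037 probe sets without the 64 controls, 34945 have 1 symbol in the platform annotation, 932 several and 9160 none. Of the symbols 0 changed on a check against RefSeq (GRCm38.p6). All 13 columns were mapped. The other Hox genes were not analysed here as single genes. Values were tested as log2(intensity + 18), 18 being the 20th percentile of all values, with limma 3.58.1 in R 4.3.3 (1 mean per group, eBayes, its prior following the intensity, with degrees of freedom of 10 residual and 5.48 prior). No filter on low values was set, so that undetected genes stayed in the fit. This scale understates the change of dim genes. The code was tested on simulated data. Tables used pandas 2.3.3 and figures matplotlib 3.10.9.

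The members and gene lists were chosen with earlier results of these data known. Every Hox gene is accounted for in paralog order. Values are given for genes above the array median in all arrays of a group or called in a comparison. For the normal samples these are by array, and for the tumours mostly the lowest, median and highest. Other lists are given by counts with values of members called. Alternatives were other pseudocounts (1 and 64), a filter, other scalings, no intensity trend, only the 2 groups compared, other choices of probe set, and leaving out each array. The p-values measure the spread between these samples. Precision is limited by how many arrays there are.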

Additional observations from a re-analysis of the deposited data

Results flagged for a closer look

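In groups of 4 and 6 arrays, the highest or lowest value was flagged where its gap to the next value took an unusually large share of the group's range. The 33 Hox genes and 33 of the other genes named above were examined in Ptch1 MB and E16.5 DBS, 132 groups of values in all, and 18 were flagged, 13 of them in the 66 groups of the Hox genes. Chance flags about 1 in 20 groups. Intensities near background scatter unevenly, and most of the flagged Hox values lie there.

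A pair of the Hox values was above the array median. Hoxa2 was 827 in Ptch1 MB 1, against 2.4 to 24.6 in the other tumours. Hoxc8 was 1581 in E16.5 DBS 4, against 16.3, 33.9 and 171.9 in the other brainstem arrays. The remaining 11 Hox values were all below the array median. In the tumours they were Hoxb1 at 28.9, Hoxc4 at 10.3, Hoxb5 at 20.8 and Hoxb13 at 28.9 in tumour 4, Hoxa4 at 11.1, Hoxa9 at 34.1 and Hoxc10 at 23.1 in tumour 3, Hoxa3 at 29.3 in tumour 1, Hoxb9 at 10 in tumour 2 and Hoxc9 at 42.6 in tumour 6. In E16.5 DBS 1 Hoxb1 was 46.7, above the 29.7 to 30.7 of the other arrays.

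Of the other genes, Mtx2 was 1063.4 in tumour 2, against 114.1 to 171.1 in the other tumours. In the same tumour Hoxb5os was 101.8 and Rarb 367.5. Evx1 was 56.4 in tumour 5, and Phc2 was 1289.4 in E16.5 DBS 4.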

How the results depend on the processing

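The number of Hox genes lower than in E16.5 DBS was 18 in Ptch1 MB (13 to 19 over the other settings, 16 to 18 leaving out 1 array) and 15 in P7 GNPC (12 to 16, and 14 to 17). For probe sets it was 28 (19 to 28, and 27 to 29) and 24 (18 to 24, and 22 to 27). Between Ptch1 MB and P7 GNPC 0 genes and 0 probe sets were lower in the reported fit, and 1 of each, Hoxc4, with a pseudocount of 1 (log2 difference -1.44, adjusted p = 0.0277). Leaving out 1 array gave 0 to 1 of each, Hoxc6 without tumour 4 or P7 GNPC 3 and Hoxd9 without P7 GNPC 2. The Hoxc6 calls came from its lead probe set alone, which has the suffix of probes able to bind other transcripts. None was higher under any setting. Counting any probe set of a gene, 1 gene in Ptch1 MB and 1 in P7 GNPC, Hoxa5, was above the array median in every array, in place of 0 and 0. For single genes, 745 of 772 recomputed values kept direction and call, 25 lost the call and 2 reversed: Hoxa2 between Ptch1 MB and P7 GNPC without tumour 1 (-0.030, and -0.030 to 1.04 leaving out any 1 array), and Hoxa7 between Ptch1 MB and E16.5 DBS without E16.5 DBS 3 and 4 (0.10), a setting added after their values were seen. The lost calls concern Hoxb1, Hoxd1, Hoxa7, Hoxc8 and Hoxa9, and the cause was not tested. Scaling every array to the same median put the median of all probe sets between Ptch1 MB and P7 GNPC at 0.13, beside -0.03 in the reported fit. No paired analysis was possible because the groups come from mice of different genotype or age. Values below the array median have no reliable order, and without detection calls here an undetected gene cannot be told from a dim one.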
